A study of Mus musculus with 12 samples.

Results

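H3K9me2 in the prefrontal cortex of BIX01294-treated FAD mice was compared with that of wild-type (WT) mice at 22214 regions whose chromosome, start and end were identical in both deposited tables. One table holds FAD and WT mice and the other holds FAD mice with and without BIX01294, so the treated and WT libraries never stand side by side in a single table. Each matched region was counted once, with the WT reads taken from the first table and the reads of treated FAD mice (FAD-BIX) from the second. No FAD library entered the fold. The matched regions made up 65.7% of the 33787 regions of the first table, 50.9% of the 43680 regions of the second and a part of the 55253 distinct regions in either.

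All mice were C57BL/6 mice aged 5 to 6 months. The compared groups were 2 WT mice, for which the labels name no treatment, and 2 FAD mice given BIX01294, each with 1 ChIP and 1 input library. The 2 FAD mice with no treatment named, called FAD below, served only to place the regions. FAD stands for familial Alzheimer's disease. The FAD mutations, the promoter that drives them, the dose and schedule of BIX01294, any vehicle given to the other mice, and the sex of the mice are not given in the sources used here. No WT mice given BIX01294 were analysed here, so genotype and treatment differ together between the compared groups and cannot be told apart. Nothing in the labels says more than that these are separate mice.

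H3K9me2 is the dimethyl mark on lysine 9 of histone H3, found over silent genes, over genes that other tissues use, and over long stretches between genes. In neurons as in other cells it is written mainly by the paired methyltransferases EHMT1 (GLP) and EHMT2 (G9a), read by HP1-type proteins and removed by KDM demethylases. BIX01294 is a small-molecule inhibitor of EHMT1 and EHMT2. The comparison asks how the mark in treated FAD cortex stands relative to the WT level.

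A matched region had a median width of 332 bp, with a range of 240 to 4412 bp. By the authors' deposited annotation, 69.8% lay between genes, 22.1% in introns, 6.23% within 2 kb of a transcription start and 1.84% in exons or UTRs. A named gene could be assigned to 8265 regions (37.2%), which gave 3503 genes. Coordinates are given as GRCm38, although the submitters' processing notes name mm9, because 2806 of 2811 genes matched by symbol (99.8%) overlapped the GRCm38.p6 gene of that name.

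Few matched regions covered a promoter. Of 32851 RefSeq promoter windows of GRCm38.p6, each running from 250 bases before to 50 bases after a start, 111 were overlapped by 104 matched regions, and these windows included 38 named protein-coding genes. Among the 38 were 14 olfactory receptor genes. The motif CG, which reads the same on both strands, occurred a median of 2 times in the covered windows and 7 times in all windows. At least 1 CG was present in 82.9% of covered and 94.6% of all windows, and 10 or more in 8.11% and 43.5%. The 3 promoters below are those with the smallest p among named protein-coding genes with at least 200 covered bases. They were picked by p and are not typical, since Pou5f2 and Asz1 are among the 8.11% of covered windows with 10 or more CG. Each of the 3 is written 5′ to 3′ on the gene's strand with CG in capitals. Pou5f2, a germ cell POU-domain transcription factor (chr13:78024652-78024951, plus strand), held 11 CG. Trpv5, a calcium channel of the kidney (chr6:41680674-41680973, minus strand), held 1. Asz1, a germ cell protein of the piRNA pathway (chr6:18109012-18109311, minus strand), held 17.

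Pou5f2: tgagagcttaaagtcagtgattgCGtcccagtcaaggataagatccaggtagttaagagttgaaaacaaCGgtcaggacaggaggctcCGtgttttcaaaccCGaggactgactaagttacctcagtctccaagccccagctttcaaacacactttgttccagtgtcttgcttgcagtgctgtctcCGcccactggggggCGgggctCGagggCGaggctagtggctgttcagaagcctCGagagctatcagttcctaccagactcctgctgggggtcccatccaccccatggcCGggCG

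Trpv5: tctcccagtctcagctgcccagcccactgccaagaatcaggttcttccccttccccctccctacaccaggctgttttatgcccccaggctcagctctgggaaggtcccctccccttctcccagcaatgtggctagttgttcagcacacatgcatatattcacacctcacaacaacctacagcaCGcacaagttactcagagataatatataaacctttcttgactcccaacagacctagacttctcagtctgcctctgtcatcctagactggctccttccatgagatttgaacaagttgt

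Asz1: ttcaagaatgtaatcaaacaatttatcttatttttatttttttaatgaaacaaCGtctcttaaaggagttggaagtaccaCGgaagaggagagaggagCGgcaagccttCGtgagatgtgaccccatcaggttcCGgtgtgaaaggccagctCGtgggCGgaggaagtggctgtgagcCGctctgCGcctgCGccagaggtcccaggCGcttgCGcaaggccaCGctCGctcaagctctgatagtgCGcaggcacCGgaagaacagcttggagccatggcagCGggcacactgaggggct

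At the Pou5f2 promoter the region held 26 and 28 ChIP reads in WT against 11 and 11 in FAD-BIX. The groups did not overlap, and the log2 fold of FAD-BIX over WT was -1.14 ± 0.42 (SE, n = 2 mice per group, unadjusted p = 0.0154, adjusted p = 0.999 with edgeR's quasi-likelihood test). Its inputs held 12 and 4 reads in WT against 8 and 2 in FAD-BIX. At Trpv5 the ChIP reads were 23 and 12 in WT against 13 and 8 in FAD-BIX, and at Asz1 they were 19 and 10 against 5 and 13. At neither of these promoters did the difference pass the test, with adjusted p = 0.999 for each in edgeR.

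The matched set was defined by the FAD libraries. Every one of the 22214 regions had been called a peak in at least 1 FAD library, 83.4% of them in FAD 2 alone and 12.9% in FAD 1 alone. Only 174 had been called in a WT library and 350 in a FAD-BIX library, and 21738 in neither. Of the regions of the first table that were called in a FAD library, 88.3% were matched. Membership thus required a FAD peak, and at nearly all regions no WT or FAD-BIX peak was called. Identical bounds were also required, so regions whose joined bounds a WT or FAD-BIX peak had moved were left out. The set therefore holds few regions with WT or FAD-BIX peaks, and the results below apply to it alone. The FAD 1 library stood apart with many reads at heart muscle genes, which are given with the muscle list. The median log2 fold of FAD-BIX over WT, described below, was 0.01 in the regions called in FAD 2 alone and 0.02 in those called in FAD 1 alone. The levels of FAD in these regions are a result of that choice and are given only as a description.

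Library totals were 20.45 M to 26.58 M reads for the 4 ChIP libraries compared and 13.92 M to 23.76 M for their inputs. The matched regions took 1.07% and 1.23% of the ChIP reads in WT against 1.28% and 1.19% in FAD-BIX. The median region held 9 and 11 ChIP reads in WT against 9 and 9 in FAD-BIX, so counting error is large for a single region. The groups' labels were checked at Thy1, a neuronal surface protein gene whose promoter is often used in transgenes. At this gene (chromosome 9, 44042064 to 44042390), FAD-BIX inputs held 32.6 and 18.7 reads-per-million of the library total (RPM), whereas the WT inputs held 0.0842 and 0.692 in a region of the other table that differs by a few bases (44042078 to 44042390). The ChIP libraries held 27.8 and 24.9 RPM in FAD-BIX and 0.204 and 0.0752 in WT. The coordinates were not identical, so Thy1 was no matched region.

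Enrichment over input was modest and overlapped between the groups. Over all matched regions ChIP over input RPM had a median log2 ratio of 0.73 and 0.65 in WT against 0.69 and 0.93 in FAD-BIX. The group means were 0.69 ± 0.06 and 0.81 ± 0.16 (SD, n = 2 each), and FAD-BIX 1 lay between the WT mice. The share of ChIP reads over the share of input reads was 1.67 and 1.66 in WT against 1.71 and 2.24 in FAD-BIX, where both FAD-BIX mice were above both WT mice, the first of them by little. In FAD-BIX input 2, 4834 regions held no read, against 2301 in FAD-BIX input 1 and 1168 and 1980 in WT inputs. The authors' added count of 1 weighs more in such regions, where it holds the ratio of ChIP to input down. The FAD mice had 1.2 and 2.48 at these regions chosen from their own peaks. With 2 mice against 2, an exact permutation test cannot go below p = 0.333, so no such test was made on these values.

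**Figure D1:**
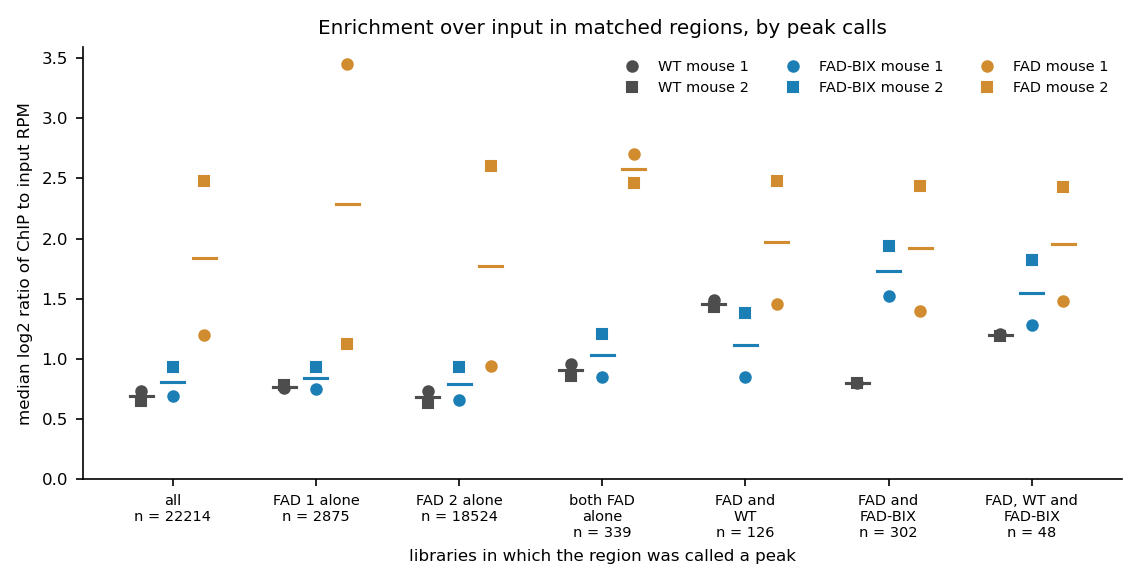
Median log2 ratio of ChIP to input RPM (y axis) for each mouse, over all matched regions and split by the libraries in which a region was called a peak (x axis). Points are mice and bars are group means. Over all regions the WT mice stand at 0.73 and 0.65 and the FAD-BIX mice at 0.69 and 0.93. FAD is high where FAD reads chose the regions.

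Regions called in FAD 2 alone, the largest class with 18524 regions, gave 0.73 and 0.63 in WT against 0.66 and 0.93 in FAD-BIX. In the 339 regions called in both FAD libraries and in no other, the ratios were 0.96 and 0.86 in WT against 0.85 and 1.21 in FAD-BIX, with FAD-BIX 1 below both WT mice. The 302 regions called in FAD and FAD-BIX but not in WT had 0.8 and 0.8 in WT against 1.52 and 1.94 in FAD-BIX. The 126 called in FAD and WT but not in FAD-BIX had 1.49 and 1.43 in WT against 0.85 and 1.38 in FAD-BIX. These last 2 classes were chosen by the very reads compared, so their direction follows from the choice. ChIP exceeded input in all 4 libraries at 8534 regions (38.4%), and by at least 2-fold at 770 (3.47%). Both FAD-BIX libraries and neither WT library were at least 2-fold above input at 1492 regions (6.72%). The reverse held at 862 (3.88%). Over all regions the median log2 ratio of FAD-BIX 2, 0.93, was the closest to this 2-fold cut, while FAD-BIX 1 at 0.69 lay between the WT mice. The part of that library's level in these 2 counts was not tested.

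Ephb1 and other sites with the strongest enrichment in all 4 libraries had similar levels in both groups or lower ones in FAD-BIX, none past the test. At Ephb1, an ephrin receptor gene of axon guidance (chromosome 9, 102127680 to 102127991, intron, beside the start), ChIP reads were 235 and 95 in WT against 144 and 87 in FAD-BIX, while no input held more than 10. At Etfb, an electron transfer flavoprotein subunit gene (chromosome 7, 43446954 to 43447194, intron), they were 152 and 101 against 114 and 105. At Smoc1, which encodes a secreted calcium-binding protein (chromosome 12, 81159892 to 81160281, intron), they were 199 and 100 against 162 and 91. WT 1 was the highest of the 4 at each of these 3 sites. Their log2 folds were -0.43 ± 0.42, -0.09 ± 0.33 and -0.14 ± 0.39 (SE). The region with the highest ChIP over input in its lowest library lay between genes on chromosome 2 (83691201 to 83691476), with 1893 and 894 reads in WT against 860 and 639 in FAD-BIX over inputs of at most 11. Its log2 fold was -0.80 ± 0.35 (adjusted p = 0.999, edgeR), and the groups overlapped in RPM, with 77.3 and 33.6 in WT against 42.1 and 29.0 in FAD-BIX.

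No matched region differed between FAD-BIX and WT after adjustment. Of 12165 regions with enough reads to test, 0 passed an adjusted p of 0.05 in edgeR, which is 0% of those tested, and the smallest adjusted p was 0.999. Before adjustment, 239 regions (1.96%) were above WT and 223 (1.83%) below at p under 0.05. DESeq2 called 0, with 32 above and 33 below. Restricted to regions with a mean of at least 20 reads, edgeR called 6, of which 3 lay on the X chromosome, 2 on chromosome 8 and 1 on chromosome 6, in the stretches described further on. The median log2 fold was 0.01, and the central 90% of folds ran from -0.92 to 0.93. The scaling by trimmed means (TMM) places the bulk of regions at a fold near 0, so this median does not measure a shift shared by all regions. Scaled by library totals instead, the median log2 fold was 0.13, and 396 regions were above and 117 below. The libraries' medians were then -1.29 and -1.15 in WT against -1.03 and -1.14 in FAD-BIX, as log2 RPM. The nearest mice of the groups were thus almost level.

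What these libraries could resolve depended on how many reads were summed. Of single regions, 4.71% had a 95% interval of the fold that lay within 2-fold either way. Summed by gene, 34.3% of 2373 genes did, and summed by megabase, 83.5% of 2172 windows (1813 windows) did. A difference of 2-fold or more was therefore outside the interval for most windows but not for most regions. Genes gave 0 calls (0%; smallest adjusted p = 0.434, edgeR), with 43 above (1.81%) and 40 below (1.69%) before adjustment. Windows also gave 0 calls (0%), with 56 above (2.58%) and 59 below (2.72%), and a smallest adjusted p of 0.0691. DESeq2 called 0 genes and 0 windows, with 5 and 9 genes and 7 and 10 windows above and below before adjustment.

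Mice of different groups resembled each other as closely as mice of the same group. Across 2172 windows the log2 levels correlated at 0.959 between the WT mice and 0.953 between the FAD-BIX mice, and at 0.949 to 0.961 across groups. The windows differ in the number of regions they sum, which all libraries share and which raises these values. Across 12165 single regions the values were 0.452, 0.413, and 0.409 to 0.471. The standard deviation of the log2 ratio of 2 mice over windows was 0.372 within WT, 0.402 within FAD-BIX and 0.367 to 0.415 across groups, where counting error alone would give 0.272 to 0.288.

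**Figure D2:**
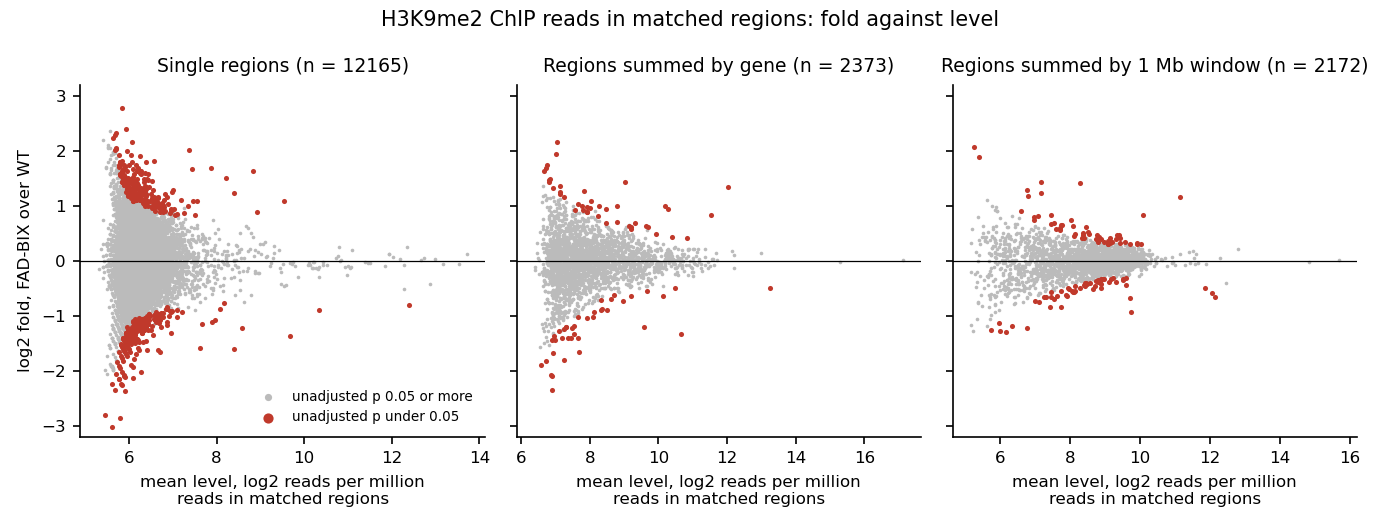
Log2 fold of FAD-BIX over WT (y axis) against mean level in log2 counts-per-million (x axis), for 12165 single regions, 2373 genes and 2172 windows of 1 Mb. Red points had an unadjusted p under 0.05, and no point passed an adjusted p of 0.05. The folds narrow as more reads are summed.

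The medians of most classes of region lay near 0. The median log2 fold was 0.01 between genes, 0.01 in introns, 0.05 in exons or UTRs and -0.01 within 2 kb of a start. It was 0.02 in regions under 300 bp and 0.06 in those of the widest class, 1 kb or more. Over the 19 autosomes the median ranged from -0.02 to 0.05. In regions more than 200 kb from a start it was 0.04, with 33 above (2.77%) and 20 below (1.68%) before adjustment among 1190 tested, against 1.96% and 1.83% of all regions tested. The X chromosome stood apart with a median of 0.41 over 45 tested regions, 10 above (22.2%) and 0 below before adjustment.

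On the X chromosome the difference came from 1 of the 2 FAD-BIX mice and was also seen in input. The 36 matched regions at 3 to 6 Mb and 31 to 35 Mb, chosen after their values were seen, include those at multicopy genes of the Btbd35f and Spin2 families. They took 0.159% and 0.226% of matched ChIP reads in WT, 0.19% in FAD-BIX 1 and 0.674% in FAD-BIX 2. FAD 1 was as high as FAD-BIX 2 with 0.611%, and FAD 2 was at the WT level with 0.176%. FAD-BIX 2 and FAD 1 were also the 2 highest in input, where the shares were 0.239% and 0.222% in WT, 0.225% in FAD-BIX 1, 0.749% in FAD-BIX 2, 0.637% in FAD 1 and 0.269% in FAD 2. Over the other 96 X regions the ChIP shares were 0.353% and 0.307% in WT against 0.342% and 0.318% in FAD-BIX, which overlap.

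Within these stretches, the window at 31 to 32 Mb (Btbd35f25, Btbd35f29, Spin2f) held 297 and 538 ChIP reads in WT against 367 and 1267 in FAD-BIX. Scaled to library totals these were 12.1 and 20.2 RPM against 17.9 and 57.6, so that the groups overlapped. Its log2 fold was 1.16 ± 0.27 (SE, adjusted p = 0.0808, edgeR). The input fold was 0.83, and the fold of ChIP relative to input was 0.31 (unadjusted p = 0.534). Without FAD-BIX 2 the ChIP fold was -0.00287. The window at 33 to 34 Mb (Btbd35f6) held 46 and 53 reads in WT against 41 and 195 in FAD-BIX, a log2 fold of 1.42 ± 0.34 that was -0.11 without FAD-BIX 2. Reads from near-identical gene copies cannot be assigned to 1 copy with certainty, and the part of copy number in these values was not tested beyond the input counts.

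On chromosome 8 a stretch that holds defensin genes, which encode small antimicrobial peptides, had lower levels in FAD-BIX in ChIP and input alike. No 1 Mb window there passed the test. The window at 19 to 20 Mb (Defb3, Gm31371; 8 regions) had the smallest p of all windows. It held 10.6 and 13.1 RPM of ChIP in WT against 7.92 and 7.86 in FAD-BIX, with no overlap, and a log2 fold of -0.68 ± 0.15 (SE, adjusted p = 0.0691, edgeR). Its inputs held 7.79 and 11.9 RPM in WT against 6.39 and 4.81 in FAD-BIX, a log2 fold of -0.70, and the fold of ChIP relative to input was 0.00 (unadjusted p = 0.998). The inputs of the FAD mice, at 4.32 and 4.57 RPM, were also below both WT inputs. Over 44 regions at 19 to 22 Mb, a stretch chosen after its values were seen, the inputs held 47.6 and 66.2 RPM in WT, 36.7 and 27.9 in FAD-BIX, and those of FAD held 28.2 and 26.5. Of the 35 tested there, 13 were below WT and 2 above before adjustment, against 14 below and 10 above among the 609 tested on the rest of chromosome 8.

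Single regions of that cluster showed the pattern in each mouse. At 20593350 to 20593687, between genes, ChIP reads were 94 and 118 in WT against 30 and 32 in FAD-BIX, and input reads were 42 and 37 in WT against 16 and 8 in FAD-BIX. Its log2 fold of -1.61 ± 0.33 had the smallest p of the regions described here (unadjusted p = 0.000166, adjusted p = 0.999, edgeR). The regions beside AY761185, a gene of the same stretch, lay the other way. In the one at 20946942 to 20947970, ChIP reads were 58 and 87 in WT against 119 and 119 in FAD-BIX, with a log2 fold of 0.88 ± 0.31, while the inputs held 2.06 and 3.52 RPM in WT against 3.81 and 2.44 in FAD-BIX, which overlap. In FAD this region held 160 and 188 ChIP reads. At the other, 20948241 to 20948615, ChIP stood at 0.368 and 1.09 RPM in WT against 2.2 and 1.23 in FAD-BIX, and the inputs differed the same way, at 0.463 and 0.231 RPM against 1.36 and 1.29.

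At 2 other windows the ChIP difference was not matched in input, and each leaned on 1 mouse. The window at 129 to 130 Mb of chromosome 6 holds natural killer receptor genes (Klra5, Klri1) and had 16.9 and 8.2 RPM of ChIP in WT against 8.27 and 6.09 in FAD-BIX. Its log2 fold was -0.93 ± 0.21 (adjusted p = 0.0762, edgeR), while its inputs held 1.3 and 2.19 RPM in WT against 1.7 and 2.37 in FAD-BIX. A single region near 4922502D21Rik (129334981 to 129335221) carried most of it, with 338 and 135 reads in WT, 90 and 83 in FAD-BIX and at most 4 in any of their inputs. Over the window WT 1 stood clear of the other mice. Without it the log2 fold was -0.23, and without WT 2 it was -1.42. The window of Trpv4, a cation channel gene (chromosome 5, 114 to 115 Mb), had 10.4 and 7.45 RPM in WT against 24.0 and 10.5 in FAD-BIX, a log2 fold of 0.82 ± 0.21 (adjusted p = 0.122, edgeR). Of its 7 regions, 5 had been called in a FAD-BIX library and were thus partly chosen by these reads. FAD-BIX 1 and FAD 1, with 40.8 RPM, were high there. FAD-BIX 2 was at the upper WT value. Without FAD-BIX 1 the log2 fold was 0.18, and without FAD-BIX 2 it was 1.26. The inputs of this window held 6.1 and 4.85 RPM in WT and lay lower in FAD-BIX, at 4.08 and 3.59.

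**Figure D3:**
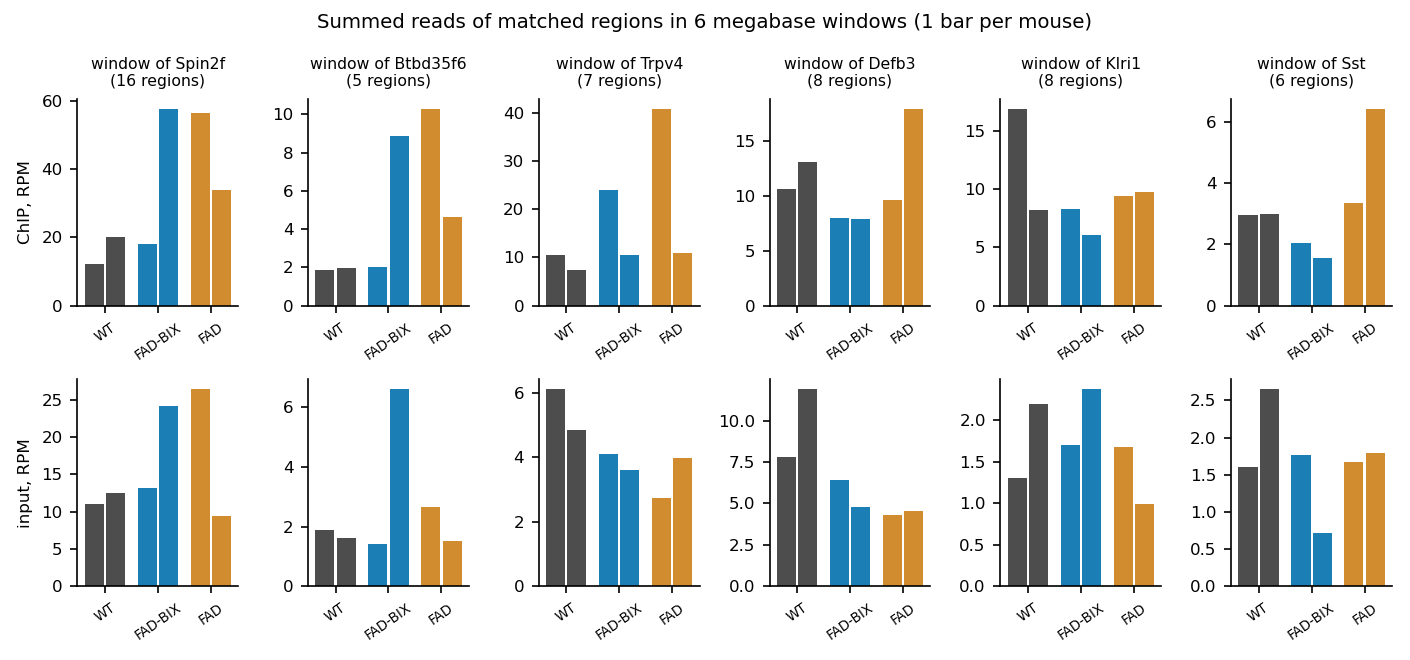
Reads of matched regions summed over the 6 windows of 1 Mb with the smallest p, 3 above and 3 below WT, in RPM (y axis), for ChIP (top) and input (bottom). Each bar is 1 mouse and each window is named by a gene in it. In the windows of Spin2f and Btbd35f6, FAD-BIX 2 and FAD 1 are high, and in the window of Defb3 the WT inputs stand at 7.79 and 11.9 RPM above all others.

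The window of Sst, the somatostatin gene of a class of inhibitory neurons (chromosome 16, 23 to 24 Mb), had 2.98 and 3.01 RPM in WT against 2.05 and 1.55 in FAD-BIX. Its log2 fold was -0.84 ± 0.26 (adjusted p = 0.595, edgeR), and the input fold was -0.67. In place of 1 Mb windows, 7 windows of 5 Mb passed an adjusted p of 0.05 in edgeR. Of these, 2 lay on the X chromosome (0 to 5 Mb and 30 to 35 Mb), and those on chromosomes 5 and 6 hold the Trpv4 and Klri1 windows. The one on chromosome 8 spans 20 to 25 Mb, next to the Defb3 window, and takes in the 20 to 22 Mb part of the stretch described above. Its log2 fold was -0.44, and its inputs held 47.6 and 61.4 RPM in WT against 38.6 and 26.9 in FAD-BIX. The other 2 were chromosome 1 at 180 to 185 Mb (21 regions, log2 fold -0.45) and chromosome 2 at 180 to 185 Mb (3 regions, log2 fold -0.41). The chromosome 1 window held 1118 and 1803 ChIP reads in WT against 1023 and 869 in FAD-BIX. Scaled to library totals these were 45.7 and 67.8 RPM against 50.0 and 39.5, so that the groups overlapped. The chromosome 2 window also overlapped, with 58.2 and 90.0 RPM in WT against 64.3 and 55.3 in FAD-BIX. In both, WT 2 held the most ChIP reads. The inputs of the chromosome 1 window held 33.0 and 38.4 RPM in WT against 26.0 and 17.3 in FAD-BIX, with no overlap, and those of the chromosome 2 window 42.7 and 31.6 against 36.5 and 31.5.

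The 16 named single regions, the 8 in each direction with the smallest p among regions of at least median level with groups apart and a named gene other than a Gm or Rik model, included introns of the ion channel genes Dpp10 and Kcnc2 and of the glutamate receptor gene Gria4. In Dpp10, which encodes an auxiliary subunit of Kv4 potassium channels (chromosome 1, 123972558 to 123973048, intron), ChIP reads were 5 and 7 in WT against 22 and 19 in FAD-BIX. The log2 fold was 1.91 ± 0.50 (SE, unadjusted p = 0.00144, edgeR). In Plxna4, a semaphorin receptor gene (chromosome 6, 32290181 to 32290710, intron), they were 10 and 4 against 20 and 25. In Alk, a receptor tyrosine kinase gene (chromosome 17, 72201203 to 72201555, intron), they were 5 and 8 against 18 and 20. In the desert beside Cdh9, a type II cadherin gene (chromosome 15, 16309213 to 16309712, at -468638 bp from its start), they were 4 and 11 against 18 and 22. At all 4 of these sites, the inputs of the groups overlapped. The Trpv4 exon region, with 44 and 40 reads against 121 and 57, had been called in a FAD-BIX library and so was partly chosen by these reads. The other 3 of the 8 above WT were the X-linked Btbd35f29, Spin2f and Btbd35f6 regions.

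Below WT, the region in Isx, an intestinal homeobox gene (chromosome 8, 74882189 to 74882777, intron), held 13 and 34 reads in WT against 6 and 4 in FAD-BIX. Its log2 fold was -2.03 ± 0.56 (unadjusted p = 0.00231). In Kcnc2, which encodes a Kv3 potassium channel of fast-spiking neurons (chromosome 10, 112363848 to 112364276, intron), the reads were 28 and 20 in WT against 5 and 9 in FAD-BIX. In Gria4, an AMPA receptor subunit gene (chromosome 9, 4451075 to 4451447, intron), they were 18 and 24 against 7 and 8, and its inputs also did not overlap, at 14 and 5 reads in WT against 2 and 2. A region between genes (chromosome 13, 72133140 to 72133415) had 18 and 21 against 6 and 7. It was assigned to the homeobox factor gene Irx1 by nearest start, at a distance of -169554 bp. Mgat4c, Sirpb1b, Egfem1 and Olfr1093 completed the 8, with log2 folds of -1.62, -1.17, -1.45 and -1.42. All 16 regions had an adjusted p of 0.999 in edgeR. Requiring groups that do not overlap was part of how they were chosen. The level rule used the mean of the 4 ChIP libraries, with a cut at 12.5 reads. Regions such as those named for Dpp10 and Irx1 met it only through the group in which they were high. The same held for the filter on low counts that precedes the test. Before any such choice, 16.2% of tested regions had both FAD-BIX mice above both WT mice and 16.7% had both below.

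**Figure D4:**
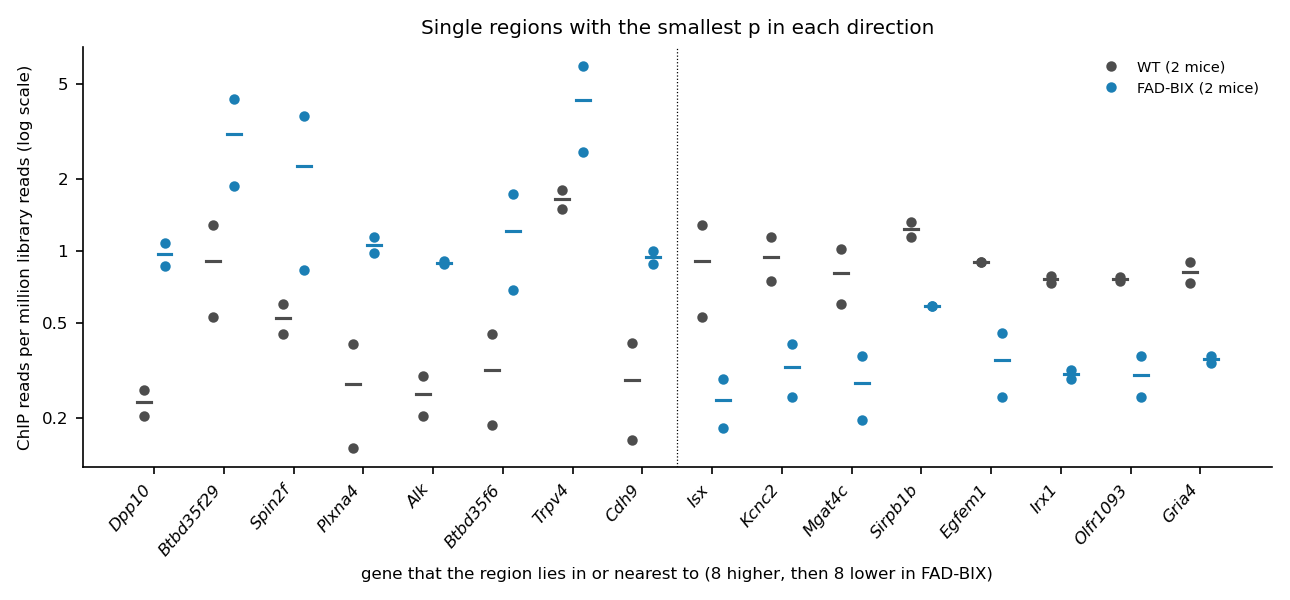
ChIP RPM (log scale, y axis) of the 16 named single regions (x axis, by gene), 8 in each direction with the smallest p among regions of at least median level with a named gene other than a Gm or Rik model and groups that do not overlap. Points are mice and bars are group means. The 8 regions on the left were above and the 8 on the right below WT in FAD-BIX, and all had an adjusted p of 0.999.

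Summed by gene, among genes with at least 3 matched regions and groups apart, the 8 with the smallest p above WT included Fndc3a, Fras1, Tll1 and Trp63, and the 8 below included Casp12, Tbpl2, Corin and Sox5. Fndc3a, a fibronectin-domain protein gene (4 regions), held 31 and 31 reads in WT against 51 and 60 in FAD-BIX. Fras1, which encodes an extracellular matrix protein of epithelia (3 regions), held 11 and 16 against 33 and 25. Trp63, the p63 transcription factor gene of stratified epithelia (7 regions), held 60 and 75 against 89 and 96, while its inputs lay the other way with 42 and 26 against 20 and 18. The regions nearest to Casp12, an inflammatory caspase gene (5 regions, 0 overlapping the gene), held 74 and 77 against 41 and 45. Their inputs also did not overlap, at 40 and 31 against 16 and 15. Corin, a serine protease gene (3 regions), held 37 and 27 against 14 and 14, with inputs of 25 and 11 against 10 and 12. Sox5, a developmental transcription factor gene (7 regions), held 93 and 112 against 70 and 55. Their log2 folds were 1.00 ± 0.27, 1.27 ± 0.38, 0.62 ± 0.20, -0.65 ± 0.23, -1.04 ± 0.39 and -0.54 ± 0.21 (SE), each with an adjusted p of 0.997 in edgeR. Both directions were thus filled by genes with log2 folds of similar size.

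No glutamate receptor gene passed the test, and most had log2 folds near 0. Of 9 ionotropic receptor genes with matched regions, 0 had an unadjusted p under 0.05 and their median log2 fold was -0.07, against 0.01 over all genes tested. The AMPA subunit gene Gria1 (6 regions) held 45 and 67 reads in WT against 57 and 57 in FAD-BIX, with a log2 fold of 0.20 ± 0.23. The NMDA subunit gene Grin2a (9 regions) held 85 and 109 against 89 and 97, with a log2 fold of 0.11 ± 0.19. Scaled to library totals, both FAD-BIX mice were above both WT mice at Gria1, with 1.84 and 2.52 RPM in WT against 2.79 and 2.59. The same held at Grin2a, with 3.47 and 4.1 against 4.35 and 4.41, but not at Grin2b or Grid1. Scaled to the reads in matched regions instead, 14.9% of all genes tested had both FAD-BIX mice above both WT mice, and 16.9% both below. Library totals raised the median log2 fold of all genes to 0.109, so 14.9% is not a like share for Gria1 and Grin2a. Grin2b, also of the NMDA receptor (5 regions), held 42 and 54 against 58 and 44, with 0.26 ± 0.25. Grid1, a delta receptor gene (13 regions, all in introns), held 132 and 112 against 117 and 85, with -0.12 ± 0.23. Its sign depended on single mice, since the fold was 0.08 without FAD-BIX 2 and 0.14 without WT 1. The 5 metabotropic receptor genes had folds from -0.46 to 0.32 and the 9 GABA receptor genes from -0.50 to 0.14, with 0 at an unadjusted p under 0.05 in either list.

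Protocadherins, cell adhesion molecules of neurons, gave 2 genes above and 1 below WT before adjustment among 8 tested, where 1.81% of all genes tested were above and 1.69% below. Pcdh17 (16 regions, 2 overlapping the gene) held 153 and 187 reads in WT against 191 and 213 in FAD-BIX. Pcdh9 (6 regions, 2 overlapping the gene) held 73 and 102 against 97 and 120. Pcdh7 (4 regions) held 42 and 39 against 25 and 19. Their log2 folds were 0.42 ± 0.17, 0.48 ± 0.20 and -0.72 ± 0.32, so members lay on both sides of WT. Of 18 genes of voltage-gated channels, 1 was below WT before adjustment, Kcnd3, a Kv4 channel subunit gene (2 regions), with 20 and 22 reads against 8 and 8. Kcnd3 passed the filter on low counts only through WT, the group in which it was high. The list of postsynaptic scaffolds and synaptic adhesion held 292 matched regions, and 23 of its genes were tested. The median log2 fold of these 23 genes was 0.02, and 0 had an unadjusted p under 0.05 in either direction. The same count of 0 held for 7 type II cadherin, 7 presynaptic release and 19 axon guidance genes.

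The large receptor and zinc-finger families were spread on both sides of WT. Of 209 olfactory receptor genes tested, 6 were above and 2 below WT before adjustment, near the shares of 1.81% and 1.69% over all genes tested, and the median log2 fold was 0.02. Olfr912 (3 regions, 0 overlapping the gene) held 19 and 24 reads in WT against 36 and 40 in FAD-BIX. Its inputs lay the other way, with 25 and 22 against 9 and 5. Of 46 vomeronasal receptor genes, 2 were above and 0 below, with a median of 0.20. Of 42 zinc-finger protein genes, 2 were above and 0 below, with a median of 0.04. These few genes are to be read against the same 1.81% and 1.69%. Zfp369 (1 region) had the highest fold of the zinc-finger list at 2.16 ± 0.60, from 6 and 3 reads in WT against 15 and 22 in FAD-BIX. It passed the filter on low counts only through FAD-BIX, the group in which it was high, so its direction follows in part from that filter. No gene of any of the 22 lists passed an adjusted p of 0.05 in edgeR.

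**Figure D5:**
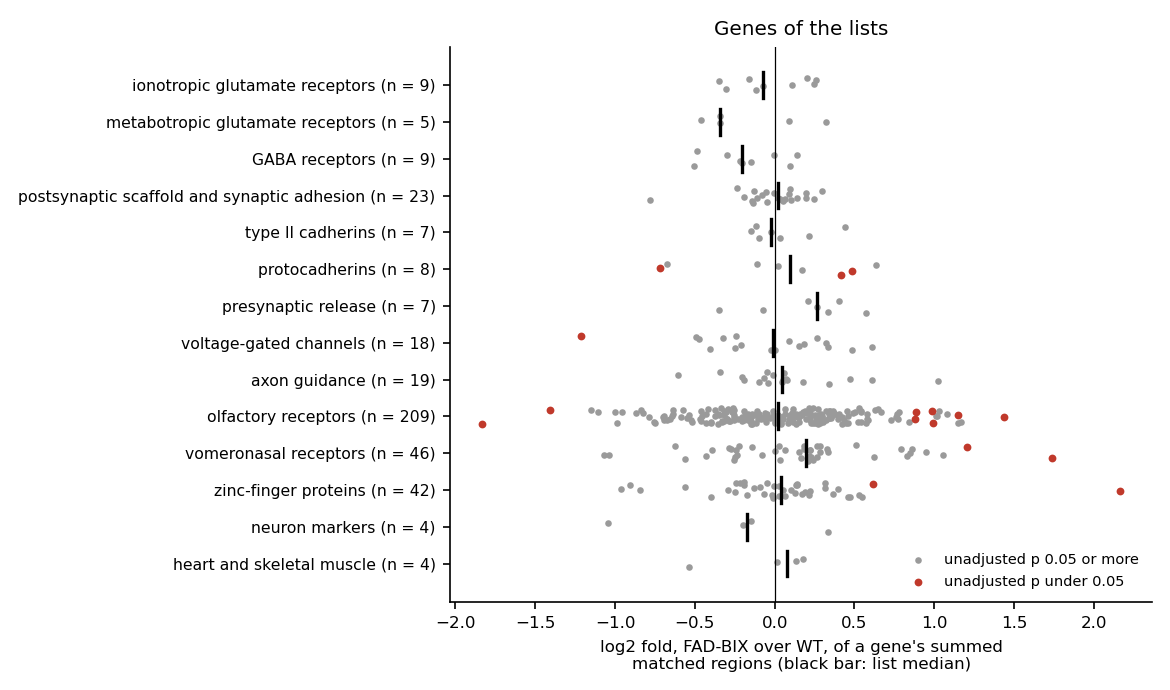
Log2 fold of FAD-BIX over WT (x axis) of each gene, summed over its matched regions, in the 14 lists with at least 4 tested genes (y axis). Red points had an unadjusted p under 0.05 and the black bar is the median of the list. The list medians lie between -0.34 (metabotropic glutamate receptors) and 0.27 (presynaptic release), and no gene passed an adjusted p of 0.05.

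The machinery of the mark was barely covered. Of 20 genes that write, erase or read H3K9 methylation, 3 had a matched region (Ehmt1, Kdm4c, Prdm2), and Ehmt2 had none. The Ehmt1 region, in an intron (chromosome 2, 24870823 to 24871131), held 8 and 7 reads in WT against 9 and 7 in FAD-BIX, too few to test. App, the amyloid precursor gene, was the assigned gene of 2 regions between genes, at -115711 and -101946 bp from its start. They held 21 and 18 reads in WT against 14 and 14 in FAD-BIX, with inputs of 12 and 12 against 1 and 4. No matched region lay at the listed housekeeping, activity-regulated or microglial genes.

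Muscle genes, which mark tissue other than brain, had overlapping levels in WT and FAD-BIX. Of 20 heart and skeletal muscle genes, 7 had matched regions, and their summed level was 10.9 and 9.44 RPM in WT against 10.9 and 10.9 in FAD-BIX, while it was 60.8 in FAD 1 and 24.0 in FAD 2. At Mb, the myoglobin gene, ChIP reads were 3 and 8 in WT, 2 and 6 in FAD-BIX and 229 in FAD 1. At Myh6, a cardiac myosin gene (3 regions), they were 32 and 28 in WT against 21 and 16 in FAD-BIX, and 410 in FAD 1. In an exon of Actc1, the cardiac actin gene (chromosome 2, 114050266 to 114050686), they were 6 and 6 in WT against 23 and 12 in FAD-BIX (unadjusted p = 0.00804, edgeR). This exon region passed the filter on low counts only through FAD-BIX, the group in which it was high. Over all 3 Actc1 regions the ChIP reads were 31 and 21 in WT against 35 and 18 in FAD-BIX. All 7 of these Mb, Myh6 and Actc1 regions were called in FAD 1 alone. Neuron markers summed to 5.64 and 5.79 RPM in WT against 5.77 and 6.46 in FAD-BIX over 8 of 18 genes. H3K9me2 levels do not measure expression, so these lists check for sites that differ and not for cell numbers.

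The input libraries gave a background for the counts of windows, and for those of regions only in part. Far fewer regions could be tested in input than the 12165 tested in ChIP, so the sets differ. No input count is given here for genes. Of 1199 regions with enough input reads to test, 0 passed (0%), with 18 above (1.5%) and 32 below (2.67%) before adjustment. Summed over 2008 windows, 0 passed (0%), with 50 above (2.49%) and 34 below (1.69%). The counts of windows before adjustment in ChIP, 56 and 59 of 2172, were thus close to the input's shares in the higher direction and above them in the lower one. A fit of ChIP relative to input also called 0 genes and 0 windows, with 49 windows above and 46 below before adjustment.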

How the data were processed

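H3K9me2 ChIP and input DNA of prefrontal cortex were sequenced from 2 mice per group, and 8 of the 12 libraries entered the fold. The submitters' processing notes name FastQC, Trimmomatic, BWA 0.7.12, MACS2 2.1.0 and mm9. Per the file headers, the deposited tables give for each called region a count of reads and an RPM value per library. The deposited RPM (reads-per-million) was the count plus 1 over the library total, and library totals were recovered from it. The authors' deposited p-values, ratios of ChIP to input and log2 fold changes support no value here. Strand, duplicate handling, read type per library and whether starts count from 0 or 1 are not given in the sources used here. Peaks had been called per library and joined into 1 list per table by the authors.

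Counts of 1 row per matched region were fitted in R 4.3.3 by the quasi-likelihood method of edgeR 4.0.16 (TMM, filterByExpr, Benjamini-Hochberg, threshold 0.05), as single regions, summed per gene (overlapping, otherwise nearest start) and per 1 Mb window. The SE of a fold was its size over the square root of F. RPM in the text leaves out the added count of 1, except in the log2 ratios of ChIP to input and the libraries' medians. The fits were tested on simulated data. DESeq2 1.42.0, limma 3.58.1, other scalings, filters, region sets, a replicate block and leaving out each library were alternatives. Python 3.11.15, pandas 2.3.3 and matplotlib 3.10.9 served for tables and figures. p-values cover the spread between 2 mice per group. Every scaling is relative, so a change common to all loci would not show.

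Named were the 8 regions and the 8 genes of lowest p, for either direction, whose groups did not overlap (regions at or above the median level with a named gene other than a Gm or Rik model, genes with at least 3 regions), the 3 windows with the smallest p in each direction, the leading genes of 22 gene lists, and fixed genes such as Gria1, Grin2a, Ehmt1 and App. Other items are said to be chosen after their values were seen. The members and lists were chosen with earlier results of these data known.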

Additional observations from a re-analysis of the deposited data

How the results depend on the processing

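No region, gene or window passed in the fits as reported, and most alternatives left that so. With a replicate block, 0 regions, 0 genes, 7 windows and 1 input region passed, and the median log2 fold was 0.01. The 7 windows were those described on the X chromosome and on chromosomes 5, 6 and 8. The pairing by replicate number was not established, since deviations of same-numbered mice correlated at 0.012 over regions and 0.039 over windows. Scaled by library totals, the median was 0.13 and 3 windows passed. By limma on ChIP over input, the median was 0.18. In place of 0 regions, 1 passed at 50% reciprocal overlap (the Thy1 region), 6 at a mean count of at least 20, and 1 among regions called in both FAD libraries alone, a set added after seeing the data. Windows of 5 Mb gave 7 calls. Leaving out each library in turn gave 0 to 15 regions, 0 to 5 genes, 0 to 5 windows, 0 to 9 input regions and medians from -0.04 to 0.03. With library totals as well, these omissions gave 0 to 14 regions and medians of 0.04 to 0.21, with 0.15 without FAD-BIX 2. Without FAD-BIX 1, 15 regions, 5 genes and 5 windows passed. Without WT 2, 5 regions, 5 genes and 2 windows passed. Without FAD-BIX 2, 4 genes and 1 window passed, and without FAD-BIX input 1, 9 input regions did. A lone mouse was then assumed to vary like the other group. Among 71 named items under 497 alternatives, 465 kept their direction and side of the threshold, 23 passed it and 9 changed sign. These were Grid1, which ranged from -0.38 to 0.14 (0.08 without FAD-BIX 2), Actc1 from -0.39 to 0.62 (-0.19 without WT 2), the X windows at 31 Mb from -0.00287 to 1.79, at 33 Mb from -0.11 to 2.14, at 3 Mb from -0.61 to 2.23 and at 5 Mb from -0.29 to 1.94, each lowest without FAD-BIX 2, and the chromosome 2 window at 83 Mb, from -1.14 to 0.05 without WT 1. The cause was not tested. Depth limits single regions most, with a median SE of 0.52.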
